A study of Mus musculus with 3 samples.

Results

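The genes described here are those of glucose uptake, glycolysis, lactate and pyruvate handling, the citric acid cycle and the malate-aspartate shuttle, taken by name from the deposited gene table. Of 49 listed genes, 47 are rows of the table, out of 34617 rows in all; Mpc1 and Mpc2 are not row names, and their older symbols Brp44l and Brp44 are given with the other pathway genes. Transcripts were measured in 1 library of each of 2 groups of sorted main olfactory epithelium cells from mice aged 4 weeks. The mOSN library came from C57BL/6J cells positive for EGFP expressed with Omp, the gene of olfactory marker protein, which marks mature olfactory sensory neurons. The O/Tet3 library came from Fvb mice that carry OMP-tTA and tetO-Tet3-GFP, so that a driver at Omp switches on Tet3, which turns the DNA base 5-methylcytosine into 5-hydroxymethylcytosine. The comparison asks how transcript levels in these neurons differ when Tet3 is overexpressed. A single library stands for each group, so nothing below has a test, a p-value or a replicate. Strain, genotype and library cannot be told apart, and every difference describes these 2 libraries alone.

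Glycolysis splits glucose into pyruvate in the cytosol and yields some ATP. Pyruvate is then either reduced to lactate or carried into mitochondria, where pyruvate dehydrogenase turns it into acetyl-CoA for the citric acid cycle, whose NADH feeds the respiratory chain. Many steps are served by alternative isozymes from separate genes, and the choice of isozyme is known to differ between tissues and between neurons and glia.

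A value below is 2 to the deposited log2 value, minus 1. A log2 ratio is that of value + 1 in O/Tet3 over mOSN, and a fold is the ratio of the values themselves. A gene entered the comparison when one library or both gave it a value of 1 or more, and it was called higher or lower at a 2-fold difference of value + 1. The labels were first checked on 2 genes. The Tet3 value was 3.72 in mOSN against 145 in O/Tet3, which goes with the labels, and Omp was at 298 and 139. The unit of the values is not named in the file, but they behaved as values per length: in short olfactory receptor genes, value multiplied by gene length moved in steps of whole reads. On a transcript of 1000 bases, 1 read added about 0.0249 to the mOSN value and 0.0467 to the O/Tet3 value, so a value of 1 rests on about 40.2 and 21.4 reads. Levels of different genes within a library could therefore be set side by side, and the O/Tet3 values rest on fewer reads.

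All 47 genes had a value above 0 in both libraries, and 40 were compared. Their values ran from 0.0928 to 157 in mOSN, with a median of 13.5, and from 0.0147 to 218 in O/Tet3, with a median of 16.3. Most were well above the usual row, since rows at 1 or more had medians of 5.02 and 5.82. Of the 40 compared, 7 (17.5%) were higher in O/Tet3, namely Pgk1, Idh3a, Ldhb, Pfkp, Pdk1, Got1 and Pdhb, and 1 (2.5%), Gpi1, was lower. Among all 12943 compared rows, 16.5% were higher and 12.0% lower, or 17.1% and 8.7% among the 12460 rows that are not olfactory receptors. The share of higher members was thus near that of all rows. The median log2 ratio was 0.39 over the 40 members and 0.21 over all compared rows, or 0.25 over those that are not olfactory receptors. With a floor of 5, closer to the level of most members, the medians were 0.40 for members and 0.29 for all compared rows.

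Rows at 1 or more in both libraries had a median log2 ratio of 0.21. After this shift was subtracted, Pgk1, Idh3a and Ldhb were the 3 members still higher and Gpi1 the 1 lower, against 11.3% of all compared rows higher and 15.1% lower. At a 3-fold difference of value + 1, 0 members were higher and 0 lower. The called members nearest to the bound were Gpi1 (log2 ratio −1.01) and Pdhb (1.07), and the nearest outside it were Aldoc (0.87) and Pdk2 (0.85).

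**Figure D1:**
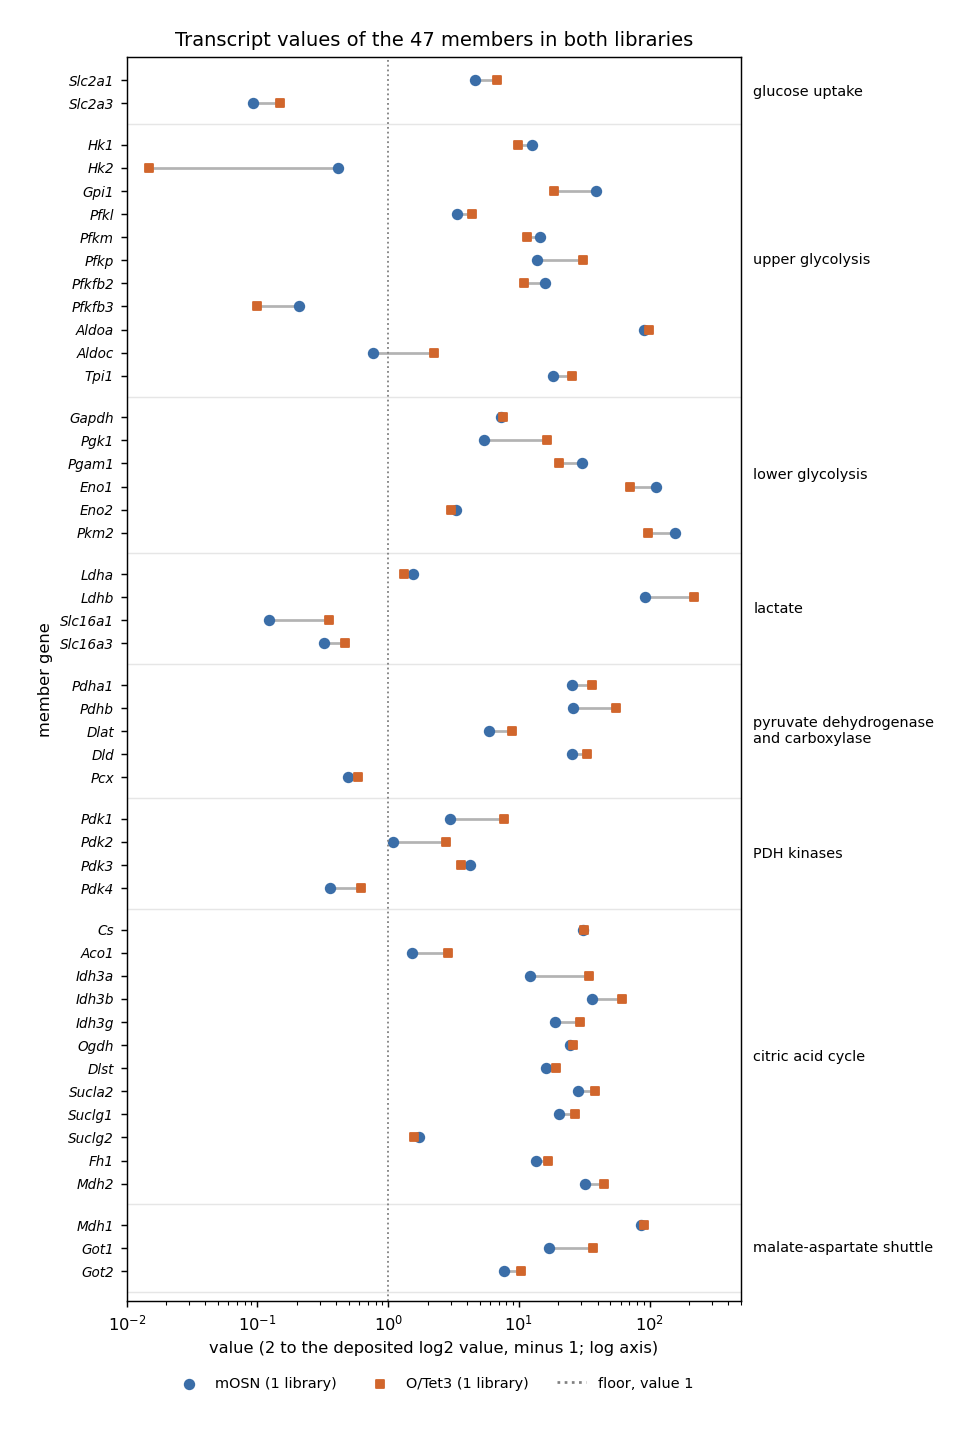
Value of each of the 47 member genes (vertical axis, grouped by role) in the mOSN library (circles) and the O/Tet3 library (squares) on a log axis, with a dotted line at the value 1. The upper end of the scale is held by Ldhb at 218 in O/Tet3 and Pkm2 at 157 in mOSN, and most pairs lie close together.

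**Figure D2:**
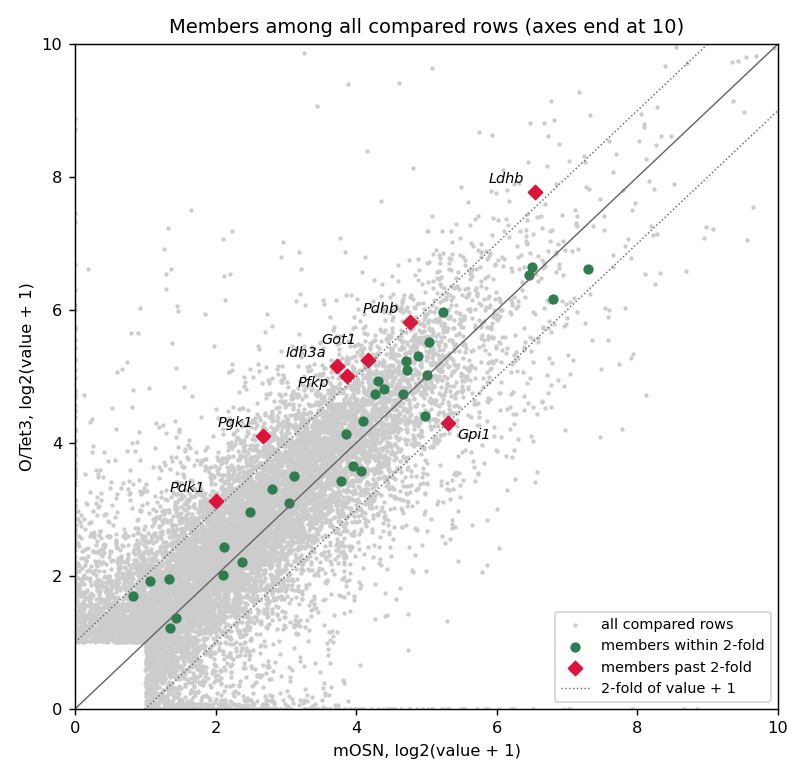
Log2(value + 1) in O/Tet3 against mOSN for all compared rows (grey) and the 40 compared members, with the 7 higher and 1 lower member as named diamonds and dotted lines at a 2-fold difference of value + 1. Members lie in the upper part of the cloud, and 32 of 40 fall between the dotted lines.

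The promoter sequences of 4 of the 8 called members are shown, each chosen for its own reason after the values and matches were seen. Pgk1 had the largest ratio, Ldhb the highest level in O/Tet3, Pfkp the most matches to the motif searched among the called members, and Gpi1 was the only lower member. The choice of Pfkp favours the motif, so the share of members with a match is read from all member promoters below. Each is the 250 bases before the first start listed by RefSeq (build GRCm38.p6), read 5′ to 3′ on the gene's strand. Capitals mark ACGTG or GCGTG on either strand, the core letters that hypoxia-inducible factor binds in many glycolytic genes. The windows are chrX:106186850-106187099 (plus strand) for Pgk1, chr6:142507958-142508207 (minus strand) for Ldhb, chr13:6648772-6649021 (minus strand) for Pfkp and chr7:34230337-34230586 (minus strand) for Gpi1.
Pgk1: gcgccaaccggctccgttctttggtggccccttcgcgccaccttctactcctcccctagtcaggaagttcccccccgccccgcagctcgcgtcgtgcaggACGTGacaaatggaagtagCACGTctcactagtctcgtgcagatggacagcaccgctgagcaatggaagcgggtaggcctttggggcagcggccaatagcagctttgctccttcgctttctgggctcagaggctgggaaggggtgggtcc
Ldhb: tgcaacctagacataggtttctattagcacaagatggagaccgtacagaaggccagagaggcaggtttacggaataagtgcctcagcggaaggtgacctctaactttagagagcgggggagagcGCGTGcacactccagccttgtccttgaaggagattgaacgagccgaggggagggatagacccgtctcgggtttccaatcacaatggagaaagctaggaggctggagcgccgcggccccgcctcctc
Pfkp: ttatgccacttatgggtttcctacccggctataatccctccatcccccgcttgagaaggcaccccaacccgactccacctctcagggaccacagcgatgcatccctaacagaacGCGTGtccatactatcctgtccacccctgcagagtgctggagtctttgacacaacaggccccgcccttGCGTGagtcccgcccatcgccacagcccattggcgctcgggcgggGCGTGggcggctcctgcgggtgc
Gpi1: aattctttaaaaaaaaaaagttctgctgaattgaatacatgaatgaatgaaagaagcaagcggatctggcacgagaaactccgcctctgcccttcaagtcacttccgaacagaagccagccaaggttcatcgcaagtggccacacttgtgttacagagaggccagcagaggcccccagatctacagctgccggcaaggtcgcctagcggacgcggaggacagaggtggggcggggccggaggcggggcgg

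The Pgk1 window held 2 matches, the Ldhb window 1, the Pfkp window 3 and the Gpi1 window 0. Over the 300 bases from 250 before to 50 after the start, all 6 higher members with a listed promoter held a match (Idh3a has no entry), the 1 lower member did not, and 25 of the 38 others did. Of the 45 members with a promoter, 31 (68.9%) held one, against 62.7% of the 8086 promoters of compared rows and 43.8% of all 27025 listed promoters. Members were thus close to other compared genes, and member promoters had a median of 61.7% G and C against 60.7% in compared rows. CACGTG, an E-box that contains ACGTG, was in 6 member promoters (13.3%, against 10.1% of those of compared rows). Each of TATAAA (plus strand; 4.86% of those of compared rows) and the NRF1 motif (both strands; 2.25%) was in 1 member promoter. A match is a description of the letters, and binding was not measured.

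Glucose enters cells through facilitative transporters. Slc2a1, the widely expressed GLUT1 gene, had a value of 4.60 in mOSN against 6.81 in O/Tet3, a log2 ratio of 0.48. Slc2a3, the gene of the transporter GLUT3 that many brain neurons use, was at 0.0928 and 0.149, which is about 4 and 3 reads per 1000 bases. Slc2a1 thus made up 98% of their summed value in mOSN and 97.9% in O/Tet3.

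In upper glycolysis, from hexokinase to triose phosphates, 9 of 11 genes were compared, of which Pfkp was higher and Gpi1 lower, with a median log2 ratio of 0.14. Hk1, the hexokinase of most neurons, was at 12.7 and 9.82, while Hk2, which is typical of muscle and tumours, was at 0.413 and 0.0147. The Hk2 values equal about 17 reads and under 1 read per 1000 bases, so Hk2 was low in both and below the floor for comparison. Gpi1, which interconverts glucose and fructose phosphates, was at 38.7 and 18.6, 2.08-fold lower in O/Tet3.

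Phosphofructokinase makes the committed step of glycolysis and has 3 isozyme genes, named for liver, muscle and platelet. Pfkp, the platelet form, was at 13.7 and 30.9, a 2.26-fold difference. Pfkm, the muscle form, was at 14.5 and 11.5, and Pfkl, the liver form, at 3.35 and 4.41. The leading form was therefore Pfkm in mOSN, with 46.1% of the summed value against 43.3% for Pfkp, and Pfkp in O/Tet3, with 66% against 24.6% for Pfkm. Pfkp overlaps Pitrm1 in the RefSeq annotation and Pfkm overlaps Senp1, so without a known strand setting some of their reads could belong to those neighbours.

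Pfkfb2 and Pfkfb3 make and remove the sugar bisphosphate that activates phosphofructokinase. Pfkfb2 was at 15.7 and 10.9, within 2-fold, and Pfkfb3 at 0.207 and 0.0986, below the floor in both. Aldolase was almost wholly Aldoa, at 89.8 and 99.1, the highest gene of upper glycolysis in both libraries. Aldoc, the isozyme typical of astrocytes, was at 0.772 and 2.24, or 0.852% and 2.21% of the aldolase sum. Tpi1, which interconverts the triose phosphates, was at 18.2 and 25.5.

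In lower glycolysis, from glyceraldehyde phosphate to pyruvate, Pgk1 stood apart from the other 5 genes, and the median log2 ratio of the 6 was −0.34. Pgk1, phosphoglycerate kinase, which makes the first ATP of the pathway's payoff phase, had 5.42 in mOSN against 16.3 in O/Tet3 and was 3.01-fold higher. Pgam1, Eno1 and Pkm2, which follow it in turn, all had lower values in O/Tet3 but were within 2-fold of value + 1. Phosphoglycerate mutase Pgam1 was at 30.6 and 20.1, enolase Eno1 at 111 and 70.6, and pyruvate kinase Pkm2 at 157 and 96.6, 1.62-fold lower. Pkm2 is the older symbol of the whole Pkm gene, and the table does not separate its M1 and M2 splice forms. It was the highest member in mOSN, the row ranked 91 of all rows, and ranked 234 in O/Tet3.

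Enolase in these neurons was mainly the widely expressed Eno1. Eno2, known as neuron-specific enolase, was at 3.31 and 3.02, so that Eno1 exceeded it 33.4-fold in mOSN and 23.4-fold in O/Tet3. Gapdh, glyceraldehyde phosphate dehydrogenase and a common reference gene, was at only 7.25 and 7.56, with Pkm2 standing 21.6-fold and 12.8-fold above it. Over all of upper and lower glycolysis, 7 of 15 compared genes (46.7%) had a log2 ratio above 0, against 60.5% of all compared rows. Their median was −0.10. The summed value of all 17 genes, those below the floor included, went from 522 in mOSN to 427 in O/Tet3. Pkm2, at 157 and 96.6, and Eno1, at 111 and 70.6, weighed most in this difference of the sums.

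Several of these genes have near-identical copies that could take or lend reads. RefSeq lists 15 copies named after 7 of the members (Aldoa, Gapdh, Pgk1, Pgam1, Ldha, Ldhb and Got2), so the levels of these 7 are uncertain. In the RefSeq annotation 20 of the 47 members overlap another gene, among them 1 of the called ones, Pfkp. Where a copy is itself a row, it can be set beside its gene. Pgk1-rs7 was at 1.10 and 3.52, 3.19-fold higher like Pgk1, and Pgam1-ps2 at 9.55 and 5.94 (log2 ratio −0.60), close to Pgam1 at −0.58. Got2-ps1 was at 2.55 and 4.82. Below the floor, Pgam1-ps1 was at 0.63 and 0.929, opposite in direction to Pgam1. Ldha-ps was at 0.149 and 0.188, and Ldha-ps2 at 0.439 and 0.262. Without the 7 genes, 5 members were higher and 1 lower, and the median log2 ratio was 0.41.

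Lactate dehydrogenase interconverts pyruvate and lactate, and its heart-type subunit is Ldhb and its muscle-type subunit Ldha. Ldhb was at 92.3 in the mOSN library and 218 in the O/Tet3 library, a 2.37-fold difference, and went from rank 179 to rank 90 of all rows. Ldha was at 1.56 and 1.32. By these values the transcripts were nearly all Ldhb in both libraries, 59.3-fold and 165-fold above Ldha. Both genes have named copies, so these folds are uncertain. The monocarboxylate transporters Slc16a1 and Slc16a3 stayed below the floor, at 0.123 and 0.351 and at 0.320 and 0.466.

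**Figure D3:**
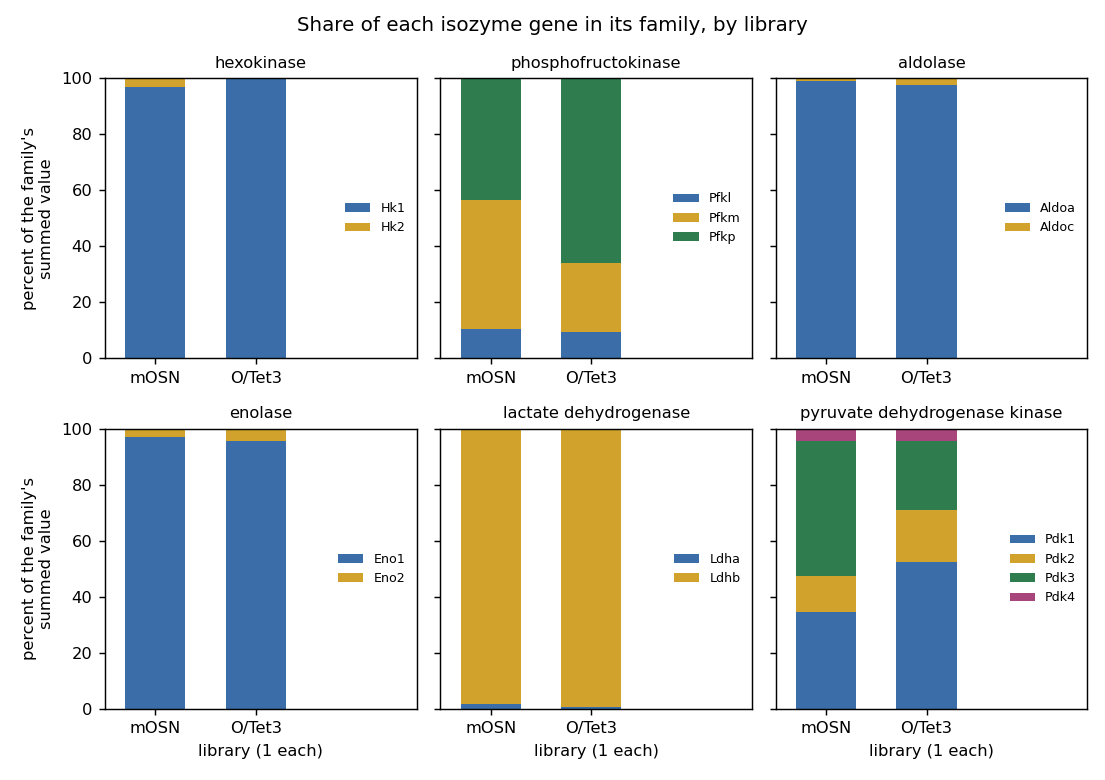
Share of each gene in the summed value of its enzyme family (vertical axis, percent) in the mOSN and O/Tet3 libraries, 1 panel per family and 1 library per bar. Hk1, Aldoa, Eno1 and Ldhb fill over 95% of their families in both bars, while Pfkp goes from 43.3% to 66% and Pdk1 from 34.7% to 52.3%.

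The 4 member genes that encode subunits of the pyruvate dehydrogenase complex had higher values in O/Tet3, and Pdhb passed 2-fold of value + 1. Over all compared rows, 60.5% had a log2 ratio above 0. After the shift of all rows was subtracted, the log2 ratios were 0.86 for Pdhb, 0.31 for Pdha1, 0.30 for Dlat and 0.18 for Dld. A further subunit gene outside the members, Pdhx, holds Dld in the complex and was at 11.7 in O/Tet3. Its log2 ratio was 0.50, or 0.29 after the shift, within 2-fold. Pdhb, the beta subunit of the decarboxylase, was at 26.0 and 55.6, 2.14-fold higher. Its partner Pdha1, the alpha subunit, was at 25.3 and 36.5, so that the ratio of beta to alpha was 1.03 in mOSN and 1.52 in O/Tet3. The acetyltransferase Dlat was at 5.95 and 8.89, and the dihydrolipoamide dehydrogenase Dld, which the 2-oxoglutarate dehydrogenase complex shares, at 25.3 and 33.4. Pcx, pyruvate carboxylase, which refills the cycle with oxaloacetate and is known as an astrocyte enzyme in brain, was at 0.493 and 0.592, below the floor in both libraries.

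Pyruvate dehydrogenase kinases switch the complex off by phosphorylation. Pdk1 was at 2.99 and 7.69, 2.57-fold higher in O/Tet3. Pdk2 was at 1.09 and 2.78, a 2.55-fold difference of the values that falls under 2-fold of value + 1. Pdk3 was the leading kinase in mOSN, at 4.19, with 48.5% of the family's value, and was at 3.63 in O/Tet3, where Pdk1 led with 52.3%. Pdk4, the fasting-induced form of muscle, was at 0.359 and 0.616. Kinase and subunit values were thus both higher for Pdk1 and Pdhb, and enzyme activity was not measured.

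In the citric acid cycle, 11 of 12 compared genes had a log2 ratio above 0, 9 of 12 after the shift of all rows was subtracted. Over all compared rows 60.5% were above 0, and 50.3% after the shift. Their median was 0.42, or 0.21 after the shift, and only Idh3a passed 2-fold of value + 1. Whether this list differs from that of glycolysis was not tested. Idh3a, the catalytic subunit of the NAD-dependent isocitrate dehydrogenase, had 12.2 in mOSN against 34.5 in O/Tet3 and was 2.83-fold higher. Its partner subunits had smaller ratios, with Idh3b at 36.5 and 61.7 and Idh3g at 18.8 and 29.5. Idh3a was the lowest of the 3 in mOSN, and it stood above Idh3g in O/Tet3, where the Idh3g to Idh3a ratio was 0.855 against 1.54 in mOSN.

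The other enzymes of the cycle differed little between the libraries. Citrate synthase Cs, the entry step, was at 30.9 and 31.4, and Ogdh, the first subunit of 2-oxoglutarate dehydrogenase, at 24.5 and 25.8. Dlst, the succinyltransferase of that complex, was at 16.0 and 19.2, and fumarase Fh1 at 13.5 and 16.6. Mitochondrial malate dehydrogenase Mdh2 was at 31.9 and 44.7. Cs and Ogdh thus had log2 ratios of 0.02 and 0.07, among the smallest of all members.

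Succinyl-CoA ligase joins the shared alpha subunit Suclg1, at 20.1 and 27.0, to an ADP-type or a GDP-type beta subunit. Sucla2, the ADP type, was at 28.4 and 38.5, and Suclg2, the GDP type, at 1.71 and 1.58. The ADP type therefore made up 94.3% and 96.1% of the beta subunit value. Aco1, the cytosolic aconitase that also acts as an iron regulatory protein, was at 1.52 and 2.87.

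The malate-aspartate shuttle passes electrons of cytosolic NADH into mitochondria. Got1, the cytosolic aspartate aminotransferase, was at 16.9 and 36.9, 2.18-fold higher, and its mitochondrial counterpart Got2 at 7.68 and 10.3. Mdh1, the cytosolic malate dehydrogenase, was among the highest members in both libraries, at 86.2 and 91.0. Got1 exceeded Got2 2.20-fold in mOSN and 3.57-fold in O/Tet3.

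**Figure D4:**
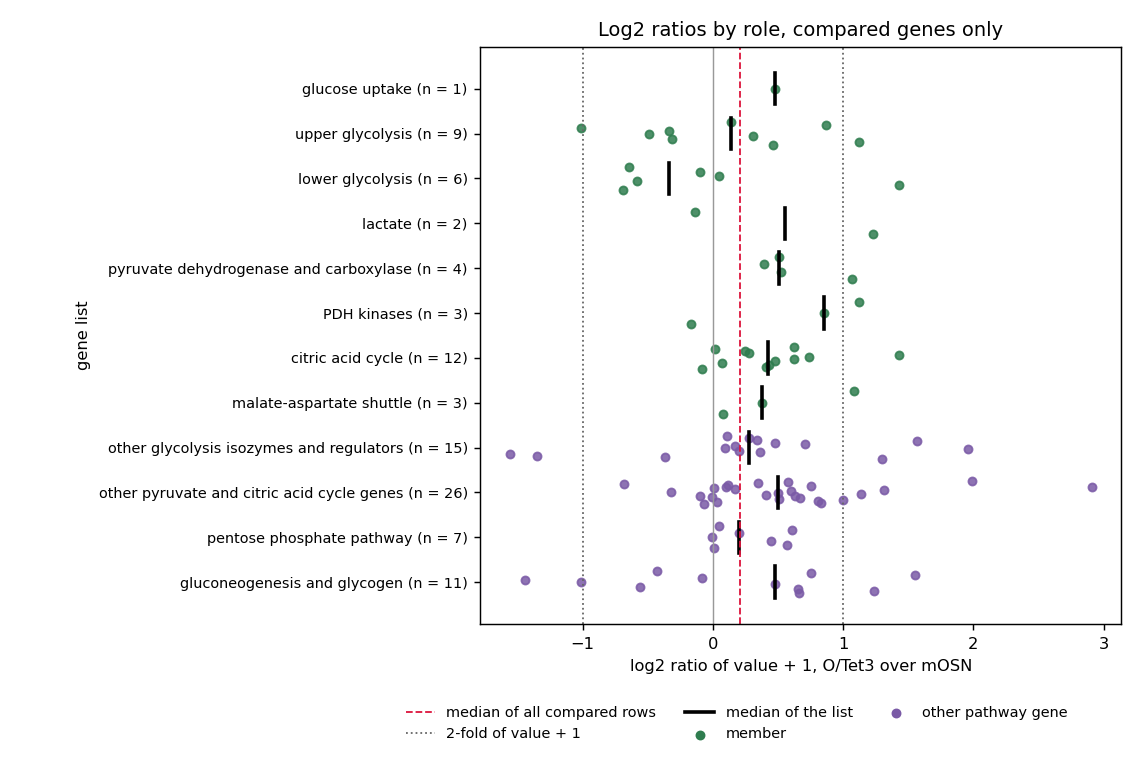
Log2 ratio of value + 1, O/Tet3 over mOSN (horizontal axis), of each compared gene, by role, for members (green) and other pathway genes (purple), with list medians as black bars, the median of all compared rows dashed and 2-fold of value + 1 dotted. Lower glycolysis has the lowest median, −0.34, and the citric acid cycle genes lie mostly between 0 and 1.

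A list of 95 other gene symbols of these pathways gave 90 rows. Among those without a row, Gpi, Pkm, Pc and Fh are other symbols of the members Gpi1, Pkm2, Pcx and Fh1. Of the 90 rows, 59 were compared, of which 9 (15.3%) were higher and 4 (6.78%) lower. Over all compared rows the shares were 16.5% and 12.0%, so the share of higher genes was near the background. Their median log2 ratio was 0.36, and the called genes below are given as values of these libraries. The 4 genes higher among the 26 compared pyruvate and citric acid cycle genes were Idh1, Acly, Me1 and Pdp1. Idh1, the cytosolic NADP-dependent isocitrate dehydrogenase, was at 1.68 and 19.1, and Acly, which splits exported citrate into acetyl-CoA, at 8.03 and 34.8. The malic enzyme gene Me1, which makes cytosolic NADPH, was at 3.58 and 10.4, and Pdp1, the phosphatase that reactivates pyruvate dehydrogenase, at 7.01 and 16.6. Thus Pdp1 and its opponent Pdk1 were both higher in O/Tet3. Sdha, a succinate dehydrogenase subunit, was the highest of this list at 90.0 and 140.2, and the pyruvate carrier genes Brp44l and Brp44 were at 14.4 and 8.57 and at 19.3 and 24.8.

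Among 15 compared glycolytic isozymes and transporters outside the members, 3 were higher and 2 lower. Of the 3 higher genes, Pgm1 of the phosphoglucomutase family was at 0.495 and 4.83, and the urate and sugar transporter Slc2a9 at 0.454 and 2.59. Both rested on at most 20 reads per 1000 bases in mOSN, so their folds are imprecise. Pgm2, of the same family as Pgm1, was at 4.37 and 5.18, within 2-fold of value + 1. The monocarboxylate transporter genes Slc16a7, which encodes the neuronal MCT2, at 5.69 and 1.62, and Slc16a6, at 3.40 and 0.495, were the lower ones. Slc16a7 was thus higher than Slc16a1 and Slc16a3 in both libraries. Bsg, basigin, which brings monocarboxylate transporters to the membrane, was the highest of this list at 55.4 and 70.3.

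The 7 compared genes of the pentose phosphate pathway, which makes NADPH and ribose, were all within 2-fold of value + 1, the highest being the transaldolase Taldo1 at 20.9 and 31.6. Of 11 compared genes of gluconeogenesis and glycogen, 2 (18.2%) were higher and 2 (18.2%) lower, against 16.5% and 12.0% of all compared rows. The glycogen branching enzyme Gbe1, at 2.91 and 10.5, and the liver-type glycogen phosphorylase Pygl, at 0.729 and 3.10, were higher. The glycogenin gene Gyg, which primes glycogen, at 1.48 and 0.233, and the mitochondrial glycerol phosphate dehydrogenase Gpd2, at 4.65 and 1.08, were lower. Gpd2 serves the glycerol phosphate shuttle. The related gene Gpd1l was at 7.89 and 7.44, within 2-fold of value + 1, and Gpd1 at 0.178 and 0.18, below the floor. Ugp2, which makes the sugar donor of glycogen, was the highest of this list at 11.4 and 18.6.

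The cells in the libraries also differed by their markers, and the part of this in the values above was not tested. All 10 markers of mature olfactory sensory neurons were lower in O/Tet3, with summed values of 3181 and 711. Over all compared rows, 16.5% were higher and 12.0% lower. Immature neuron markers were mixed, 4 of 9 being higher and 1 lower (summed values 89.6 and 149), and of 6 compared sustentacular cell markers 0 were higher and 1 lower (31.4 and 14.9). Of 5 compared markers of glia, blood and vessels, 0 were higher and 1 lower, Fabp7 at 4.78 and 0.0607. Pecam1, under the floor, was at 0.121 and 0.508. The summed values of glia, blood and vessel markers, 66.8 and 40.8, were mostly haemoglobin, with Hba-a2 at 39.9 and 21.0. Those of basal, gland and microvillous cells were at 3.80 and 3.50, with members going opposite ways: Pou2f3 was higher, at 0.582 and 2.90, and Ascl3, at 1.58 in mOSN, and Cftr, at 1.02, were lower. Krt5, Krt14, Trp63, Ascl3, Cftr, Cyp1a2, Sox10 and S100b had an exact 0 in the O/Tet3 column, and none of these had one in mOSN. In bulk samples of this kind, fewer cells of a type and less RNA per cell cannot be told apart. Xist, the RNA of the inactive X chromosome, was at 0.0137 and 5.79, and 4 members are X-linked. Of these, Pgk1 was higher, while Pdha1 (log2 ratio 0.52), Idh3g (0.62) and Pdk3 (−0.17) were within 2-fold. The part of Xist, or of a difference in the sex of the animals, was not tested.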

How the data were processed

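Per the labels' protocols, RNA of sorted cells went through RiboMinus depletion of ribosomal RNA and ScriptSeq library preparation. Build mm9 and the tools Cuffdiff, Bowtie and Bowtie2 are named, without roles, in the submitters' processing notes. Annotation and strand setting are not given in the sources used here. The authors' deposited table holds a log2 value per gene and library and their difference. The file itself shows that the deposited log2 columns hold log2(value + 1): the lowest is 0, and 99.4% of the mOSN and 99.3% of the O/Tet3 values above 0.01 had at most 6 significant digits once converted (relative tolerance 1e-09). The deposited log2 ratio equals the column difference within 8.0e-14. Each column was given to its sample by its name, a short form of the genotype. The third sample, DNA immunoprecipitated for 5-hydroxymethylcytosine, is not analysed here.

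Values were computed with Python 3.11.15, NumPy 2.4.6 and pandas 2.3.3, with a floor of 1 in either library, a pseudocount of 1 and a bound of 2-fold. The code was also run on simulated data with planted differences larger than those of the called members and read-counting noise alone. Such data hold no variation between libraries of a group, so they do not test the calls made here. Read steps came from 161 low values of olfactory receptor genes in mOSN and 179 in O/Tet3, with gene lengths from RefSeq; 82.0% and 77.1% lay within 0.1 of a whole read, against 62.2% and 64.8% when 1 length was used for all. In mOSN 90.0% of all summed values, and in O/Tet3 96.9%, lay in the 6 largest rows, so values depend on the scaling; centring was an alternative. Named genes were all members, the other pathway genes past 2-fold and the highest of each list. Some genes that this rule or the marker lists hold are not reported here. Members and lists were chosen with earlier results of these data known. Promoters and gene names were taken from RefSeq (GRCm38.p6).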

Additional observations from a re-analysis of the deposited data

How the results depend on the processing

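Ratios without a pseudocount, the rows without olfactory receptors and the members without named copies were chosen after seeing the data. No paired analysis was possible because a single library stands for each group. Of 52 counts and medians under these and the other alternatives, 37 lay within 1.5 times the reported count or 0.1 of the reported median. With centring, 3 members were higher, and the medians were 0.18 for members and 0.01 for all compared rows, as subtracting 0.21 implies. With no floor the medians were 0.27 for members and 0.00 for all rows. At 3-fold, 0 members were higher and 0 lower, of all rows 745 and 673, and of other pathway genes 3 and 0. With a floor of 5, 1401 rows were higher and 793 lower, and 5 and 1 of the other pathway genes. A stricter fold or floor counts fewer genes by construction. Without a pseudocount 9 members were higher, now with Aldoc and Pdk2, and the same 9 with a pseudocount of 0.1. Of 141 single-gene ratios, 10 moved by at least 0.5 and 0 called genes changed sign. Fewer reads per unit of value in O/Tet3 limit what can be said of Hk2, Slc2a3 and Pfkfb3.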
